A study of Mus musculus with 18 samples.

Results

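The members described here are 10 genes of the BCL2 family, found by symbol among the 20298 genes of an RNA-seq table of mouse monocytes and monocyte-derived cells (MDCs). Of these, 5 are pro-survival genes (*Mcl1*, *Bcl2l1*, *Bcl2*, *Bcl2a1b* and *Bcl2a1d*), 2 are effectors (*Bax* and *Bak1*) and 3 are BH3-only genes (*Bcl2l11*, *Bbc3* and *Pmaip1*). The cells were Ly6C+ CCR2+ monocytes of the C57BL/6 strain, taken from bone marrow by negative selection, from WT mice or from DKI mice. In DKI mice the N-domains of *Stat5a* and *Stat5b* are both mutated by knockin, so that STAT5 forms dimers but not tetramers, and the mutations are in every cell of the animal, not in monocytes alone. Day 0 cells were untreated, and day 3 and day 6 MDCs had been kept in 20 ng/mL GM-CSF. No group was kept without GM-CSF, so that GM-CSF and time in culture cannot be told apart. Each of the 6 groups of genotype and day held 3 libraries, from 3 independent experiments. The age of the mice and the number pooled per library are not given in the sources used here, so that p-values measure the spread between these libraries. The question put to the members was how their expression moved in GM-CSF and whether it differed without STAT5 tetramers. Expression is given as RPKM, reads scaled to gene length and library size, as the authors deposited it.

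BCL2 family proteins decide whether the outer membrane of the mitochondrion is breached in apoptosis. The pro-survival proteins MCL1, BCL-XL (from *Bcl2l1*), BCL2 and A1 (from the *Bcl2a1* genes) hold back the effectors BAX and BAK, which form the pores. BH3-only proteins such as BIM (from *Bcl2l11*), PUMA (from *Bbc3*) and NOXA (from *Pmaip1*) tip the balance toward death by binding the pro-survival proteins, and NOXA binds mainly MCL1 and A1. Short-lived myeloid cells are known to depend on MCL1 and A1, and GM-CSF and related cytokines are known survival factors for them. STAT5 is the transcription factor through which the GM-CSF receptor and its kinase JAK2 act on many target genes.

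A1 is encoded in mice by several near-identical genes on chromosome 9, of which *Bcl2a1b* and *Bcl2a1d* are members here and *Bcl2a1a* and *Bcl2a1c* are further copies. Their sequences are shown because the genotype difference lay mostly in these genes, and because reads cannot always be assigned to a single copy. The coding sequences of *Bcl2a1b* and *Bcl2a1d* were identical at 513 of 519 bases (98.8%). The first 60 coding bases follow, with the 2 positions at which the copies differ in capitals.
Bcl2a1b: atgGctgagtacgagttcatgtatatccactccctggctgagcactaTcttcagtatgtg
Bcl2a1d: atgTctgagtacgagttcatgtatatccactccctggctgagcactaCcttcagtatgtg
Of the 50-base windows of the RefSeq transcripts, 57.6% for *Bcl2a1b* and 79.5% for *Bcl2a1d* also occurred in another copy, as did 69.0% for *Bcl2a1a* and 10.4% for *Bcl2a1c*. A read that fell within such a window could not have been told apart by sequence. The read length, and how a read that matches more than 1 gene was counted, are not given in the sources used here, so the split of reads between the copies is uncertain, and their sum is given beside it.

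In the mm10 build, *Bcl2a1b* lies on chromosome 9 from 89199273 to 89207838 on the forward strand and *Bcl2a1d* from 88723288 to 88731850 on the reverse strand. Of the other members, *Mcl1* lies on chromosome 3 (95656944 to 95663179), *Bcl2l1* on 2 (152758732 to 152833803), *Bcl2* on 1 (106538176 to 106714290), *Bax* on 7 (45461695 to 45466903), *Bak1* on 17 (27019812 to 27028627), *Bcl2l11* on 2 (128126038 to 128162547), *Bbc3* on 7 (16308398 to 16318334) and *Pmaip1* on 18 (66458604 to 66465558). The 250 bases upstream of each gene's start follow, from RefSeq (GRCm38.p6), 5′ to 3′ on the strand of the gene, with the letters GAGGAAG in capitals, a core recognised by the myeloid transcription factor PU.1.
Bcl2a1b, chr9:89199023-89199272, forward strand: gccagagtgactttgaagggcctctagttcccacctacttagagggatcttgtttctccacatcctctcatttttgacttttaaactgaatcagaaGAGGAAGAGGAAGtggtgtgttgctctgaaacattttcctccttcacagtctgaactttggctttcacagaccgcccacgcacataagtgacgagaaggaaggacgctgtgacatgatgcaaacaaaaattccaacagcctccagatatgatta
Bcl2a1d, chr9:88731851-88732100, reverse strand: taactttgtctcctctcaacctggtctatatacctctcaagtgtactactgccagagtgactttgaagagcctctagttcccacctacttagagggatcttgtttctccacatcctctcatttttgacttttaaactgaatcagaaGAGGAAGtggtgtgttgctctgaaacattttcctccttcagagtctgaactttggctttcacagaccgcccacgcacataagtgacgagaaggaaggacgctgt
Over the 200 bases that align, 198 were identical (99.0%), with 6 bases in inner gaps. GAGGAAG was present 2 times in the *Bcl2a1b* window, overlapping by 1 base, and 1 time in that of *Bcl2a1d*. Motifs were searched on both strands of windows of 300 bases, from 250 before to 50 after the start, of which 9 of the 10 members had at least 1. GAGGAAG was present in windows of 4 members (*Bak1*, *Bcl2*, *Bcl2a1b* and *Bcl2a1d*) and in 13.6% of all 32851 windows. The STAT5 consensus TTCNNNGAA was in 0 of the 14 member windows and in 8.30% of all windows. The same half-sites with a spacer longer by 1 base were in 6.95% of all windows and, among the members, in that of *Bcl2l1*. A match is a description of the letters in these windows, and no match says nothing of more distant sites.

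Before the values are read, some libraries have to be named. Depth was between 29.5 M and 43.2 M reads per library, and the members held between 14 and 58269 reads. The labels give liver as the tissue, whereas the study's methods give bone marrow, and 7 of 8 liver markers were under 1 RPKM in every library, the exception being *Trf*, the transferrin gene, at 34.3 to 779 RPKM. The 8 monocyte and myeloid markers were all detected, with a summed 10759 to 17201 RPKM in the day 0 libraries. DKI replicate 1 differed from the other DKI libraries of days 3 and 6 in several markers, not all in the same direction. *Ly6c2*, a monocyte surface gene that is low in MDCs, was at 775, 49.5 and 73.8 RPKM in DKI MDCs on day 3, in order of replicate, and 158, 10.5 and 5.30 RPKM on day 6. *Ccr2*, the chemokine receptor of monocytes and on the same list, was instead lowest in replicate 1, at 32.5, 106 and 395 RPKM on day 3 and 33.3, 98.7 and 168 RPKM on day 6. Of the 8 genes of that list, replicate 1 was the highest DKI library for 4 and the lowest for 2 on day 3, and for 6 and 2 on day 6. On day 3 it was the lowest DKI library for 7 of 7 cell cycle genes, but on day 6 it was the lowest for 0 and the highest for 0. Of the 11 neutrophil and precursor markers, it was the highest for 10 and the lowest for 1 on day 6, but on day 3 the highest for 2 and the lowest for 2. *Cd4* was at 53.2 and 59.4 RPKM in DKI replicate 1 of days 3 and 6 and at most 1.5 RPKM in every other library, although the other 7 genes of the T and NK cell list, among them the CD3 genes that define T cells, were under 1 RPKM in DKI replicate 1 on both days. These genes were picked from the marker lists after their values were seen. Replicate 1 of days 3 and 6 also carries an earlier year in its library name than the other libraries.

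On day 0 several members differed more between replicates than between genotypes. *Bcl2l11*, which encodes BIM, was at 139, 50.5 and 21.4 RPKM in WT replicates 1, 2 and 3 and at 140.2, 67.8 and 27.0 RPKM in the same DKI replicates. In both genotypes the first replicate was the highest and the third the lowest. The same order held for *Bcl2a1b* and *Bcl2a1d*, whose values follow below, and for *Bax*, which spread less. Other members rose from replicate 1 to replicate 3 in both genotypes, namely *Mcl1*, *Bcl2* and *Bak1*. *Bak1* was at 58.5, 72.7 and 94.5 RPKM (WT) and 61.3, 74.8 and 98.0 RPKM (DKI). *Bcl2l1*, *Bbc3* and *Pmaip1* had neither order in both genotypes. Of the 11 neutrophil and precursor markers, 5 had the order of *Bcl2l11* in both genotypes, 3 the opposite order and 3 neither. The first kind included *Camp*, a secondary granule gene, at 278, 202 and 58.3 RPKM (WT) and 301, 132 and 51.3 RPKM (DKI). *Mpo*, a primary granule gene of precursors, took the opposite order at 176, 346 and 361 RPKM (WT) and 176, 262 and 371 RPKM (DKI). All 11 neutrophil and precursor markers were detected, and their summed RPKM was 2493 to 4413 in WT and 2683 to 5264 in DKI. *Camp* and *Mpo* were picked from this list after their values were seen, and the part of these cells in the spread of the members was not tested. In bulk libraries, fewer cells of a type and less RNA per cell cannot be told apart.

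**Figure D1:**
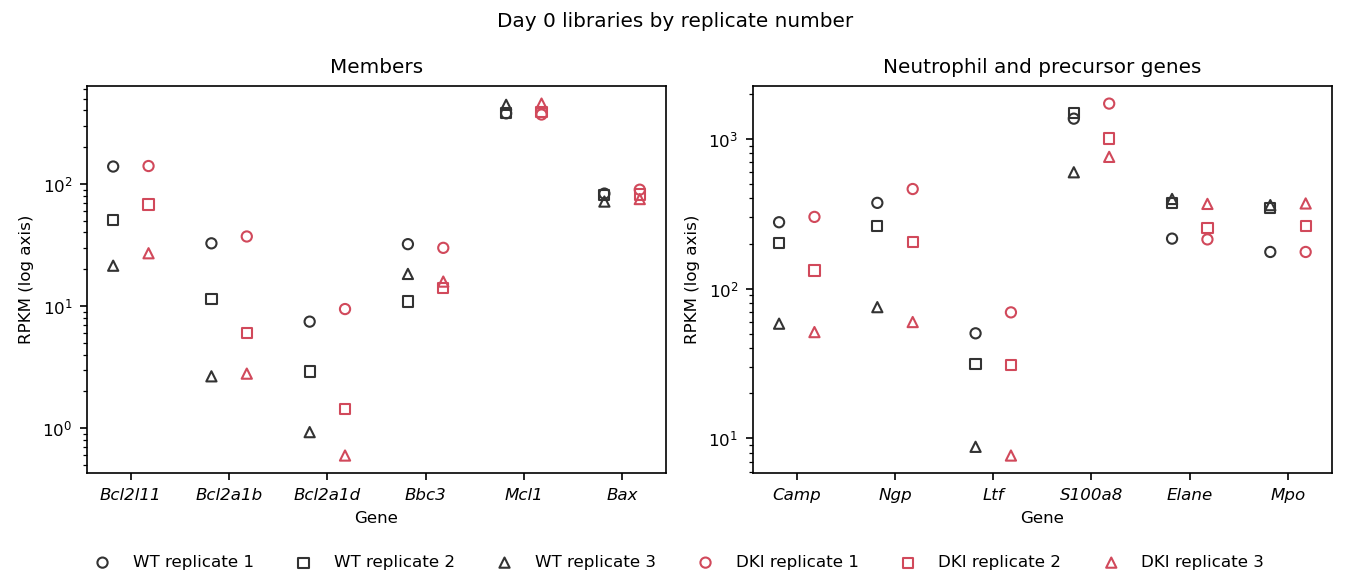
Expression (RPKM, log axis) of 6 members (left) and 6 neutrophil and precursor genes (right) in the 6 untreated libraries, 1 point per library, with colour for the genotype and marker shape for the replicate number. Bcl2l11, Bcl2a1b, Bcl2a1d, Camp, Ngp and Ltf are highest in replicate 1 and lowest in replicate 3 of both genotypes. Elane and Mpo take the opposite order in both, while Mcl1 and Bax spread little. The genes on the right are part of a list of 11, of which 5 took the first order, 3 the opposite order and 3 neither.

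In GM-CSF, *Mcl1* fell while *Bcl2l1* and both A1 members rose, in either genotype. *Mcl1*, which encodes a short-lived protein that neutralises BAK, was the most abundant member on day 0, at 379, 379 and 445 RPKM in WT monocytes and 370.4, 387 and 455 RPKM in DKI monocytes. On day 3 it was at 189, 212 and 170.2 RPKM (WT) and 293, 189.7 and 190.5 RPKM (DKI), and on day 6 at 204, 182 and 261 and 213, 221 and 189 RPKM. Every day 3 and day 6 library lay below every day 0 library, whereas the genotypes overlapped on each day. *Mcl1* fell in WT from day 0 to day 3 (log2 fold change -1.07, SE 0.16, adjusted p = 0.00201) and to day 6 (log2 fold change -0.90, SE 0.19, adjusted p = 0.00678). In DKI it fell by 0.87 on the log2 scale to day 3 (SE 0.24, adjusted p = 0.0327) and by 0.96 to day 6 (SE 0.17, adjusted p = 0.00682). These are limma tests of log2(RPKM + 1) with Benjamini-Hochberg adjustment over all genes tested, a member counts as risen or fallen at an adjusted p under 0.05 with a fold above 1.5, and the pseudocount of 1 makes the changes of low genes smaller than they are. The day 0 libraries are shared by the day 3 and day 6 comparisons of a genotype, so these are not independent. The fall in DKI to day 3 was not called when any library but DKI day 3 replicate 1 was left out (adjusted p 0.0665 to 0.0995), and without that library it was -1.08 on the log2 scale (adjusted p = 0.00622).

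*Bcl2l1*, the gene of BCL-XL, moved the other way. It was at 8.15, 7.99 and 12.1 RPKM (WT) and 7.89, 8.16 and 10.5 RPKM (DKI) on day 0, at 32.0, 42.4 and 35.7 (WT) and 44.0, 57.0 and 34.6 RPKM (DKI) by day 3, and at 27.5, 35.8 and 28.5 (WT) and 57.1, 39.1 and 28.2 RPKM (DKI) by day 6. All MDC libraries of both genotypes were above all day 0 libraries. The rise to day 3 was 1.87 on the log2 scale in WT (SE 0.20, adjusted p = 0.000620) and 2.21 in DKI (SE 0.23, adjusted p = 0.00179), and it was also called to day 6 in both, by 1.62 and 2.06. Without any 1 of the libraries the 4 calls were kept. DKI did not differ from WT by the test on day 3 (log2 fold change 0.27, SE 0.22, adjusted p = 0.469, 95% interval -0.25 to 0.80) or on day 6 (log2 fold change 0.38, SE 0.27, adjusted p = 0.398, 95% interval -0.27 to 1.03).

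*Bcl2* itself was the lowest pro-survival gene after day 0. Its values were 2.55, 3.01 and 4.43 RPKM (WT) and 2.58, 2.64 and 3.87 RPKM (DKI) on day 0. On day 3 they were 9.77, 8.61 and 13.0 RPKM (WT) and 1.99, 7.78 and 5.91 RPKM (DKI), so that the genotypes did not overlap, with DKI replicate 1 the lowest. On day 6 they were 7.74, 10.1 and 5.55 and 2.56, 6.80 and 9.37 RPKM and overlapped. *Bcl2* rose in WT to day 3 (log2 fold change 1.41, SE 0.23, adjusted p = 0.00282) and to day 6 (log2 fold change 1.01, SE 0.26, adjusted p = 0.0150), although the day 6 call was lost without WT day 0 replicate 2 (log2 0.97, adjusted p = 0.0508). In DKI the values were 0.50 to day 3 (adjusted p = 0.365) and 0.73 to day 6 (adjusted p = 0.183), neither of them called. Replicate 1 decided this: without DKI day 3 replicate 1 the value was 0.97 (adjusted p = 0.0240) and without DKI day 6 replicate 1 it was 1.17 (adjusted p = 0.0197), both called. The difference between DKI and WT on day 3 was -1.0 (SE 0.41, adjusted p = 0.183) and -0.54 without DKI replicate 1 (adjusted p = 0.184), and was not called in either.

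The A1 genes had the largest range of the 10 members, 4.82 for *Bcl2a1b* and 4.45 for *Bcl2a1d* between the lowest and highest group mean on the log2 scale. *Bcl2a1b* was at 32.6, 11.4 and 2.65 RPKM in the WT and 37.1, 5.97 and 2.79 RPKM in the DKI libraries of day 0. On day 3 it had reached 210.2, 383 and 238 RPKM in WT but 104, 61.8 and 121 RPKM in DKI MDCs, and on day 6 229, 225 and 438 and 169, 65.1 and 226 RPKM. Day 0 and later libraries did not overlap in either genotype, the genotypes did not overlap on day 3, and on day 6 the highest DKI library was level with the lowest WT libraries. *Bcl2a1b* rose in WT to day 3 (log2 fold change 4.55, SE 0.74, adjusted p = 0.00290) and day 6 (log2 fold change 4.62, SE 0.75, adjusted p = 0.00245), and in DKI to day 3 (log2 fold change 3.21, SE 0.81, adjusted p = 0.0241) and day 6 (log2 fold change 3.77, SE 0.88, adjusted p = 0.0160). The WT calls held without any 1 library, but the size of the rise depended on the day 0 libraries. To day 3 it was 5.32 without WT day 0 replicate 1 and 3.72 without WT day 0 replicate 3 on the log2 scale, and 4.18 and 2.51 without the same DKI libraries, and to day 6 it was 5.40 and 3.80 in WT and 4.73 and 3.07 in DKI. The DKI call of day 3 held only when DKI day 0 replicate 1 or DKI day 3 replicate 2 was the library left out and otherwise had adjusted p of 0.0548 to 0.0821, and the DKI call of day 6 was lost without DKI day 0 replicate 2 (log2 3.51, adjusted p = 0.0567).

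*Bcl2a1d*, a second near-identical A1 gene, was at 7.44, 2.91 and 0.926 RPKM (WT) and 9.44, 1.43 and 0.595 RPKM (DKI) on day 0. On day 3 the values were 64.2, 96.0 and 65.5 RPKM (WT) against 18.3, 14.4 and 16.1 RPKM (DKI), and on day 6 53.8, 53.8 and 89.8 against 16.9, 11.2 and 15.8 RPKM. Every DKI library was below every WT library on both days, and the DKI libraries spread by at most 1.52-fold among themselves. It rose in WT to day 3 (log2 fold change 4.23, SE 0.50, adjusted p = 0.000910) and day 6 (log2 fold change 4.02, SE 0.51, adjusted p = 0.000968), and in DKI to day 3 (log2 fold change 2.32, SE 0.65, adjusted p = 0.0338) and day 6 (log2 fold change 2.17, SE 0.66, adjusted p = 0.0377). Both DKI calls held only when DKI day 0 replicate 1 was the library left out, with adjusted p of 0.0696 to 0.106 on day 3 and 0.0621 to 0.113 on day 6 without any other. The 3 day 0 libraries of each genotype spread 7.44 to 0.926 RPKM in WT and 9.44 to 0.595 RPKM in DKI, so that the size of the rise depends on them.

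**Figure D2:**
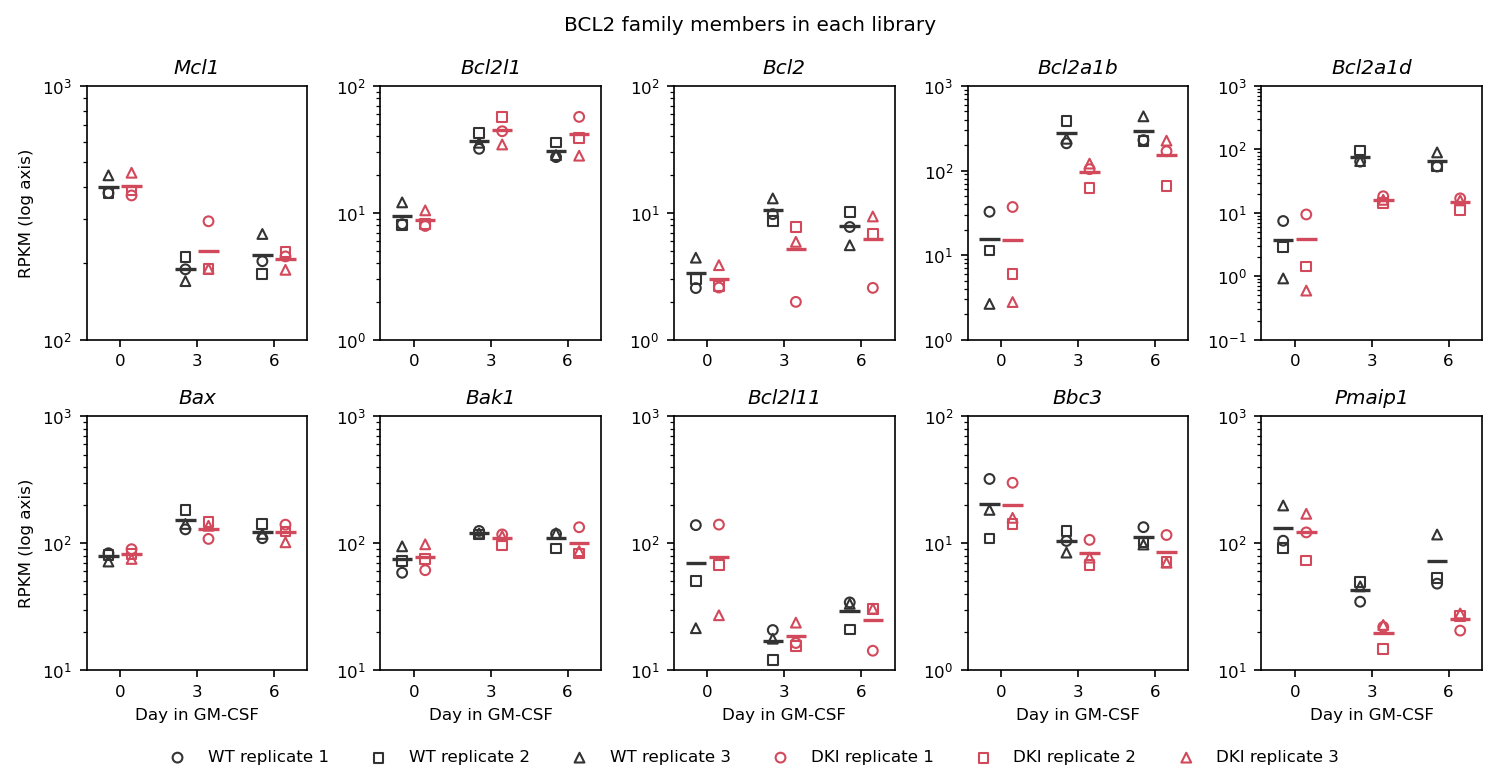
Expression (RPKM, log axis, each panel with its own range) of the 10 members by day in GM-CSF, 1 point per library, with horizontal bars for the group means, WT in grey and DKI in red, and marker shape for the replicate number. The 3 WT points of Bcl2a1d on days 3 and 6 lie between 53.8 and 96.0 RPKM and the 3 DKI points between 11.2 and 18.3 RPKM.

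The effectors changed less. *Bax* was at 78.7 ± 6.20 RPKM (SD, n = 3) in WT and 82.3 ± 7.26 RPKM in DKI on day 0, at 151 ± 28.8 (WT) and 131 ± 19.9 RPKM (DKI) by day 3, and at 123 ± 16.6 (WT) and 122 ± 19.2 RPKM (DKI) by day 6. All MDC libraries were above all day 0 libraries of their genotype. *Bax* rose in WT to day 3 (log2 fold change 0.92, SE 0.17, adjusted p = 0.00526) and day 6 (log2 fold change 0.63, SE 0.16, adjusted p = 0.0147) and in DKI to day 3 (log2 fold change 0.65, SE 0.19, adjusted p = 0.0371). In DKI on day 6 it passed the adjusted p but not the fold (log2 0.55, 1.46-fold, adjusted p = 0.0479), and it passed both without DKI day 6 replicate 3 (log2 0.67). The WT call of day 6 rested on the fold limit, since it was lost at log2 0.57 without WT day 0 replicate 3 and 0.53 without WT day 6 replicate 2. The DKI call of day 3 held only without DKI day 3 replicate 1 (otherwise adjusted p 0.0640 to 0.114). *Bak1* was at 75.2 ± 18.1 RPKM (WT) and 78.0 ± 18.6 RPKM (DKI) on day 0, 121 ± 3.94 (WT) and 109 ± 11.4 RPKM (DKI) by day 3, and 109.6 ± 16.3 (WT) and 101 ± 28.3 RPKM (DKI) by day 6. It rose in WT to day 3 (log2 fold change 0.70, SE 0.19, adjusted p = 0.0220), a call that was lost when any library but WT day 0 replicate 3 was left out (adjusted p 0.0364 to 0.0674, the lowest of these failing on the fold). It was not called in the other time comparisons, although without WT day 0 replicate 3 it was called in WT to day 6 (log2 0.73, adjusted p = 0.0319).

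Of the 3 BH3-only members, *Pmaip1*, which encodes NOXA, was the only one called in a genotype comparison. It was at 105, 91.9 and 198 RPKM (WT) and 122, 73.2 and 171 RPKM (DKI) on day 0. On day 3 the values were 34.6, 49.1 and 45.7 RPKM (WT) and 21.9, 14.6 and 22.7 RPKM (DKI), and on day 6 48.0, 53.3 and 117 and 20.5, 26.7 and 27.9 RPKM. The DKI libraries lay below the WT libraries on both days without overlap, and WT day 6 overlapped with day 0 through its replicate 3. *Pmaip1* fell in DKI to day 3 (log2 fold change -2.51, SE 0.34, adjusted p = 0.00373) and day 6 (log2 fold change -2.17, SE 0.32, adjusted p = 0.00379) and in WT to day 3 (log2 fold change -1.52, SE 0.31, adjusted p = 0.00667), each also without any 1 library. In WT to day 6 the value was -0.88 (adjusted p = 0.116), and it was -1.28 and called without WT day 6 replicate 3 (adjusted p = 0.0306).

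*Bcl2l11* was at 20.7, 12.1 and 17.7 RPKM (WT) and 16.3, 15.5 and 23.7 RPKM (DKI) on day 3, and at 34.2, 20.9 and 33.3 (WT) and 14.2, 30.4 and 30.5 RPKM (DKI) by day 6. The day 3 libraries were below the day 0 libraries in both genotypes, though the lowest day 0 value in WT, 21.4 RPKM, was close to the highest of day 3. The fall in DKI to day 3 was called (log2 fold change -1.76, SE 0.56, adjusted p = 0.0485), that in WT was not (log2 fold change -1.64, SE 0.61, adjusted p = 0.0617). The calls changed with the day 0 library that was left out. In DKI it held only when DKI day 0 replicate 3 was left out (otherwise adjusted p 0.0732 to 0.126), and in WT the value was -2.28 and called when WT day 0 replicate 3 was left out (adjusted p = 0.0104). To day 6 *Bcl2l11* was called in neither genotype with all libraries and in both without day 0 replicate 3 of the genotype (log2 -1.51 in WT and -2.0 in DKI). *Bbc3*, the gene of PUMA, was at 20.4 ± 10.8 RPKM (WT) and 20.0 ± 8.69 RPKM (DKI) on day 0, 10.5 ± 2.06 (WT) and 8.34 ± 2.04 RPKM (DKI) by day 3, and 11.1 ± 1.99 (WT) and 8.56 ± 2.63 RPKM (DKI) by day 6. It fell in DKI to day 3 (log2 fold change -1.11, SE 0.31, adjusted p = 0.0341) and day 6 (log2 fold change -1.09, SE 0.33, adjusted p = 0.0360). Each call was lost in 4 of the 6 fits that left out 1 library, namely DKI day 0 replicates 1 and 3 and replicates 2 and 3 of the later day (adjusted p 0.0595 to 0.0953 on day 3 and 0.0602 to 0.0980 on day 6). In WT it was not called, except without WT day 0 replicate 2, at log2 -1.16 to day 3 and -1.08 to day 6.

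By count, 6 members rose and 2 fell in WT from day 0 to day 3, where 20.3% of the 9938 genes tested rose and 22.8% fell. To day 6 in WT, 5 rose and 1 fell, against 21.4% and 23.7% of 10093 genes. In DKI, 4 rose and 4 fell to day 3, against 13.1% and 21.1% of 9922 genes, and 3 rose and 3 fell to day 6, against 14.1% and 26% of 9995 genes. Without a filter on low values the 8 DKI calls to day 3 became 3, and with each library centred on its median 5. All 10 members passed the filter on low values in every comparison. Marker lists of other states changed over the same days. The 7 cell cycle genes summed to 426 to 669.6 RPKM (WT) and 434 to 712 RPKM (DKI) on day 0, and to 54.4 to 139 (WT) and 60.8 to 181 RPKM (DKI) by day 3. The monocyte-derived list went from a sum of 197 to 336 RPKM (WT) and 228 to 370.1 RPKM (DKI) on day 0 to the day 3 sums given below, all of them higher. The neutrophil and precursor sums of day 0 given above became 274 to 4728 (WT) and 1678 to 3727 RPKM (DKI) by day 3. By day 6 they were 138 to 1087 (WT) and 517 to 3437 RPKM (DKI). The ranges of day 3 in both genotypes, and of day 6 in DKI, overlapped with day 0. The part of these lists in the changes of the members was not tested. The median log2 change of the members was 0.81 in WT and 0.50 in DKI to day 3, where the median of all genes tested was -0.05 and -0.16. From day 3 to day 6, 0 members were called in WT or DKI, as were 0% of genes in either direction. At an unadjusted p under 0.05, 1 member and 722 of 9613 genes passed in WT, and 0 members and 93 of 9540 genes in DKI, and limma voom on recovered reads called 0 genes in both. The member in WT was *Bcl2l11*, which was higher on day 6 in all 3 libraries (log2 fold change 0.77, SE 0.26, adjusted p = 0.632) and was chosen after its values were seen.

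**Figure D3:**
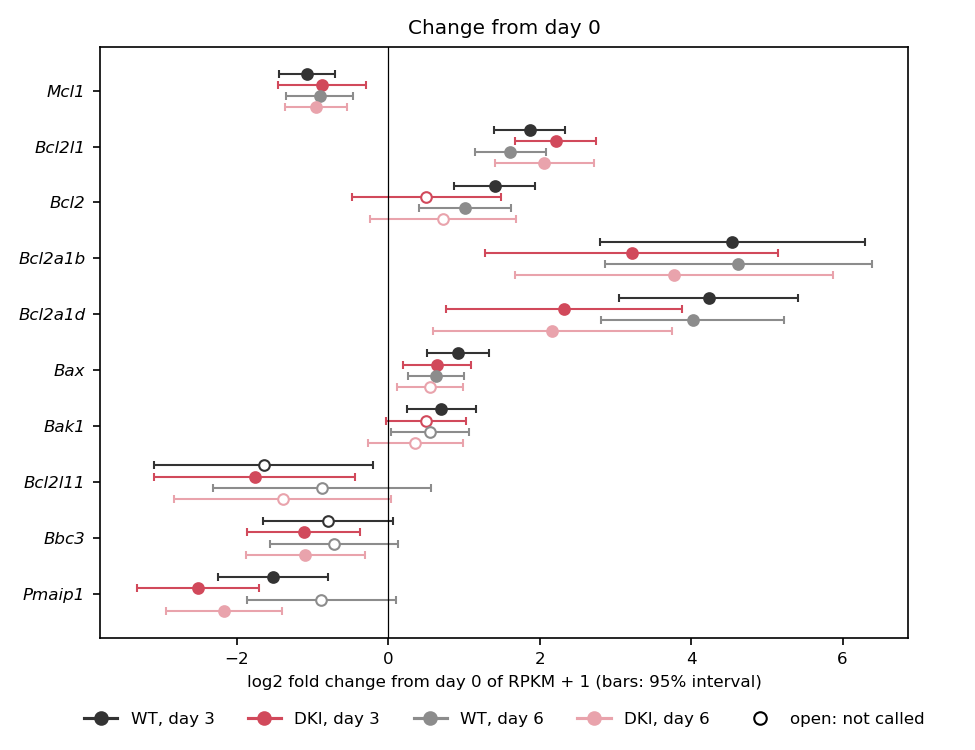
Log2 fold change of RPKM + 1 from day 0 to day 3 and to day 6 (x axis) for the 10 members (y axis) in WT and DKI, with 95% intervals as bars, filled points for members called and open points for those not called. Bcl2a1b and Bcl2a1d lie farthest to the right in both genotypes, at 4.55 and 4.23 in WT and 3.21 and 2.32 in DKI on day 3, with wide intervals, while Pmaip1 lies farthest to the left in DKI at -2.51.

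In terms of composition, *Mcl1* made up 92.5% ± 3.89 (SD, n = 3) of the summed RPKM of the 5 pro-survival members in WT monocytes and 92.8% ± 5.34 in those of DKI mice. On day 3 the A1 members together held 59.0% ± 5.18 in WT and 28.9% ± 7.40 in DKI MDCs, and *Mcl1* held 32.9% ± 4.44 and 57.6% ± 5.89. The largest share thus passed from *Mcl1* to A1 in WT, while in DKI it stayed with *Mcl1* in all 3 libraries of day 3. On day 6 A1 held 57.8% ± 5.52 in WT and 38.1% ± 14.9 in DKI, with DKI libraries from 22.2% to 51.6%, and *Mcl1* 35.6% ± 3.67 and 50.4% ± 12.5. The share of *Bcl2a1d* was narrow within groups, at 12.5% to 12.9% in WT and 3.96% to 4.36% in DKI on day 3, and at 10.3% to 10.9% and 3.25% to 3.69% on day 6. *Bcl2l1* held 6.29% ± 0.564 in WT and 12.1% ± 4.49 in DKI on day 3. These shares are of transcript level per length, not of protein, and are given with no test.

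**Figure D4:**
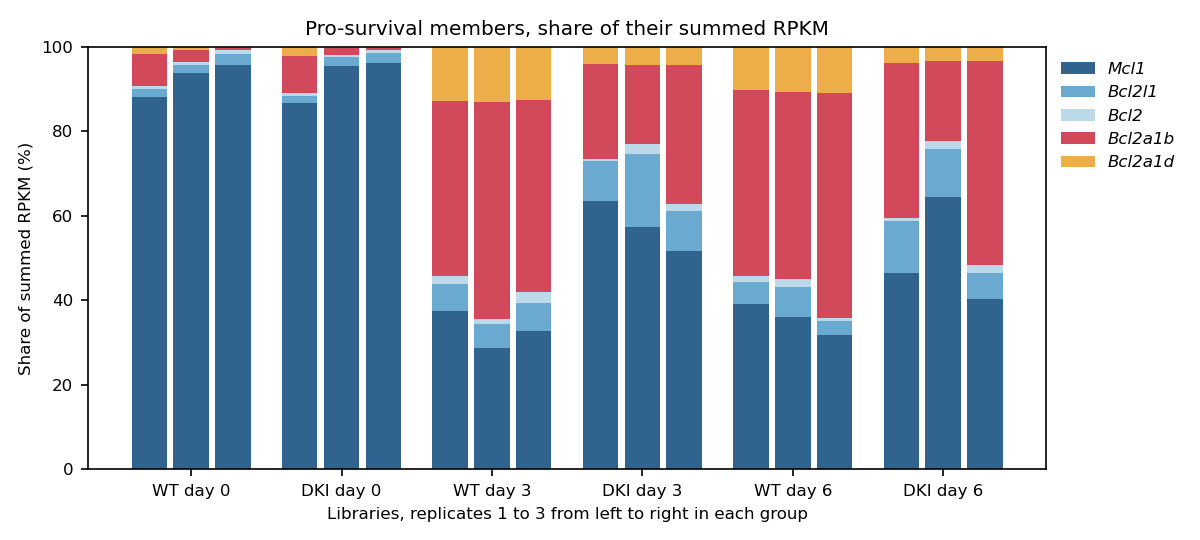
Share (%) of the summed RPKM of the 5 pro-survival members held by each of them, 1 bar per library, in 6 groups with replicates 1 to 3 from left to right. Mcl1 holds 86.7% to 96.3% of the bar on day 0, whereas Bcl2a1b and Bcl2a1d together hold 54.3% to 64.5% in WT and 23.0% to 37.2% in DKI on day 3.

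The ratio of *Pmaip1* to *Mcl1*, a BH3-only gene and the gene of the protein that NOXA binds, was 0.322 ± 0.109 (RPKM over RPKM, SD, n = 3) in WT and 0.297 ± 0.0967 in DKI on day 0. For day 3 the ratio was 0.227 ± 0.0432 in WT and 0.0903 ± 0.0250 in DKI, and on day 6 0.325 ± 0.110 and 0.122 ± 0.0260. The genotypes did not overlap on days 3 and 6. The ratio of *Bcl2l11* to *Mcl1* was close in both genotypes, at 0.0899 ± 0.0288 in WT and 0.0872 ± 0.0346 in DKI on day 3.

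DKI and WT were then compared on each day. On day 0, before GM-CSF, 0 of the 10 members were called, as were 0% of 9179 genes in either direction. At an unadjusted p under 0.05, 0 members and 44 genes passed, and limma voom called 0. The 95% interval was narrow for *Mcl1*, from -0.32 to 0.34 on the log2 scale, and for *Bax*, from -0.23 to 0.36. It was wide for members that differed between the day 0 replicates, from -2.88 to 2.48 for *Bcl2a1b* and from -1.76 to 2.26 for *Bcl2l11*, in the fit without a block, where the spread shared by same-numbered libraries counts as error. With the replicate block the intervals were -0.73 to 0.34 for *Bcl2a1b*, -0.72 to 0.29 for *Bcl2a1d* and 0.02 to 0.48 for *Bcl2l11*, which was higher in DKI in 3 of 3 pairs but not called (log2 0.25, unadjusted p = 0.0359, adjusted p = 0.9999, limma).

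On day 3, 3 members were lower in DKI and 0 higher, where 4.21% of the 9740 genes tested were lower and 3.21% higher. *Bcl2a1d* was 4.37-fold lower (log2 fold change -2.13, SE 0.20, adjusted p = 0.00679) and was called in all 14 alternative fits (adjusted p 0.00797 to 0.0292). *Bcl2a1b* was 2.89-fold lower (log2 fold change -1.53, SE 0.34, adjusted p = 0.0484) and *Pmaip1* 2.14-fold lower (log2 fold change -1.10, SE 0.22, adjusted p = 0.0395). Both lay close to the threshold. *Bcl2a1b* was called in 2 of 14 alternatives (adjusted p 0.0476 to 0.226) and in none of the 6 that left out 1 library of the day (adjusted p 0.0640 to 0.136). *Pmaip1* was called in 4 of 14 (adjusted p 0.0393 to 0.131), among them the fit without DKI day 3 replicate 1 (log2 -1.18, adjusted p = 0.0474), and in no fit without any other library of the day (adjusted p 0.0636 to 0.131). Of the members not called, *Mcl1* changed from 0.21 to 0.00091 without DKI day 3 replicate 1, *Bax* from -0.21 to -0.08, *Bbc3* from -0.30 to -0.47 and *Bcl2l11* from 0.14 to 0.21, and none was called with or without it. With the replicate number as a block, which pairs the libraries of a day, *Bcl2a1d* remained called (adjusted p = 0.0235) and *Bcl2a1b* (adjusted p = 0.102) and *Pmaip1* (adjusted p = 0.0780) did not, 1 call against 3.

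On day 6, *Bcl2a1d* was the only member called, 4.21-fold lower in DKI (log2 fold change -2.07, SE 0.26, adjusted p = 0.0149), where 4.82% of the 9842 genes tested were lower and 2.72% higher. The call was kept in 12 of 14 alternatives (adjusted p 0.0152 to 0.109). It was lost without DKI day 6 replicate 3 (log2 -2.13, adjusted p = 0.0588) and without replicate 1 of both genotypes (log2 -2.30, adjusted p = 0.109), both times with a larger difference and fewer libraries. *Pmaip1* was 2.63-fold lower in DKI without reaching the threshold (log2 fold change -1.40, SE 0.35, adjusted p = 0.0630), and was called with the replicate block (adjusted p = 0.0488), over all alternatives between 0.0181 and 0.204, so that the block gave 2 calls against 1. *Bcl2a1b* had a value of -1.05 (SE 0.51, adjusted p = 0.228) and was lower in DKI in 3 of 3 replicate pairs. The remaining members were within -0.38 (*Bcl2*) and 0.38 (*Bcl2l1*) on the log2 scale. Without DKI day 6 replicate 1, *Bcl2* changed from -0.38 to 0.06, *Bcl2l1* from 0.38 to 0.12 and *Bcl2l11* from -0.27 to 0.08. The values of *Bak1*, *Bax*, *Mcl1* and *Bbc3* became -0.36, -0.13, -0.06 and -0.58 in place of -0.14, -0.02, -0.04 and -0.36. None of these 7 was called with or without it.

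**Figure D5:**
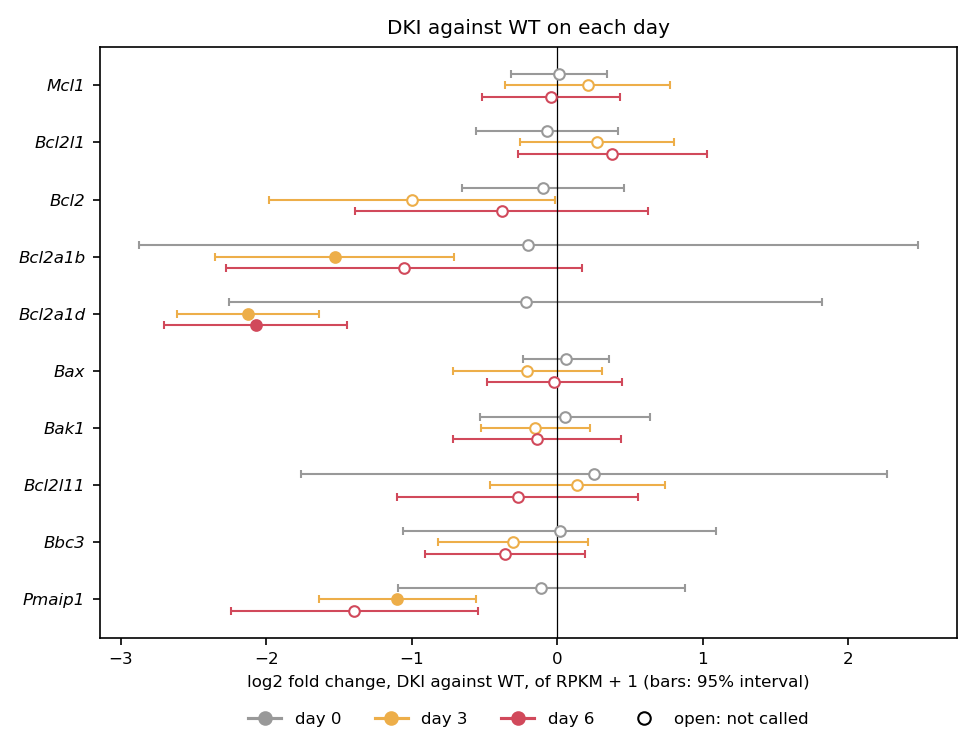
Log2 fold change of RPKM + 1, DKI against WT (x axis), for the 10 members (y axis) on days 0, 3 and 6, with 95% intervals as bars, filled points for members called and open points for those not called. The filled points are Bcl2a1d, Bcl2a1b and Pmaip1 on day 3, at -2.13, -1.53 and -1.10, and Bcl2a1d on day 6, at -2.07, while the day 0 points lie between -0.22 and 0.25.

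All genes together were shifted between the genotypes, with a median log2 difference of -0.11 on day 3 and -0.17 on day 6, against -0.25 and -0.32 for the 10 members. With each library centred on its median, the *Bcl2a1d* difference was -2.05 on day 3 (adjusted p = 0.00857) and -1.93 on day 6 (adjusted p = 0.0226), while *Bcl2a1b* and *Pmaip1* on day 3 had adjusted p of 0.0541 and 0.0533. Centring also moved the split of all calls, from 268 higher and 474 lower to 323 and 285 for DKI against WT on day 6. In DKI it moved from 1297 higher and 2097 lower to 1743 and 1622 to day 3, and from 1407 and 2600 to 1987 and 1741 to day 6. Marker genes of other states also differed, in both directions. Of the 8 genes of the monocyte-derived list, 4 were lower in every DKI than in every WT library on day 3 (*Itgax*, *H2-Aa*, *Cd74* and *Cd80*), 3 were higher (*Adgre1*, *Mertk* and *Mrc1*) and 1 overlapped, and on day 6 *Cd86* joined the lower genes, for 5 and 3. The sum of the list was 16928 to 26831 RPKM in WT and 3763 to 10309.6 RPKM in DKI on day 3, most of it from *Cd74* and *H2-Aa*, which encode parts of the MHC class II pathway, whereas *Mrc1*, a macrophage mannose receptor, was at 48.2, 4.47 and 13.3 RPKM (WT) and 417, 345 and 276 RPKM (DKI). Of the 8 monocyte and myeloid markers, 4 were higher in every DKI library on day 3 (*Ly6c2*, *Csf1r*, *Itgam* and *Lyz2*), 0 were lower and 4 overlapped (*Ccr2*, *Spi1*, *Fcgr1* and *Cx3cr1*, the last under 1 RPKM in all 6 libraries), and on day 6 there were 2 higher and 1 lower. Their sum, 1823 to 4145 RPKM in WT and 9245 to 21173 RPKM in DKI on day 3, was mostly *Lyz2*, the lysozyme gene, in DKI. Of the 11 neutrophil and precursor markers, 3 were higher in every DKI library on day 3 and 8 overlapped, and their sum was 274 to 4728 RPKM in WT and 1678 to 3727 RPKM in DKI, highest in WT replicate 2, which also had the highest *Bcl2a1b*. The marker genes named were chosen after their values were seen. The part of these cells in the result was not tested. Markers of B cells and of T and NK cells were below 1 RPKM in every library for 6 of 8 genes each.

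Since reads may be misassigned between the A1 copies, the reads of all 4 copies were also summed. Scaled to library size (RPM), the sum was 33.9, 11.8 and 3.16 RPM in WT and 39.2, 6.19 and 2.91 in DKI on day 0. By day 3 the WT libraries had 262, 429 and 275 RPM and the DKI libraries 110.0, 65.5 and 118 RPM, 3.30-fold lower on average, and on day 6 270.0, 254 and 465 and 162, 65.0 and 207, 2.28-fold lower. The genotypes did not overlap on either day, with 65.5 to 118 RPM in DKI against 262 to 429 in WT on day 3. The split also differed. The *Bcl2a1d* share of these reads was 17.8% to 19.5% in WT and 10.9% to 17.5% in DKI on day 3, and 15.4% to 16.9% and 6.06% to 13.7% on day 6, lower in every DKI library. In day 0 monocytes the share was 17.5% to 23.3% (WT) and 16.3% to 19.2% (DKI). How far this depends on the authors' assignment of shared reads was not tested.

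Whether the genotype difference itself changed between days was tested as an interaction. For day 3 against day 0, 0 members were called, where 1.2% and 1.7% of 10212 genes were called higher and lower. Of the members, 0 had an unadjusted p under 0.05, and limma voom called 0. For day 6 against day 0, 0 were called, against 0.898% and 1.9% of 10353 genes, with 1 member at an unadjusted p under 0.05 and 0 called by voom. *Bcl2a1d* had values of -1.91 (SE 0.92, adjusted p = 0.348) and -1.86 (SE 0.94, adjusted p = 0.345), in which the spread of the day 0 libraries enters. With the replicate number within a day as a block, which pairs the genotypes by number on each day, *Bcl2a1d* was called for day 3 (adjusted p = 0.0206) and day 6 (adjusted p = 0.0188) and *Pmaip1* for day 6 (-1.29, adjusted p = 0.0408). Over all alternatives the adjusted p of *Bcl2a1d* ran from 0.0206 to 0.556 and from 0.0188 to 0.562, and that of *Pmaip1* on day 6 from 0.0408 to 0.631. For day 6 against day 3, 0 members and 0% of 9985 genes were called, 89 genes and 0 members had an unadjusted p under 0.05, and voom called 0.

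Of 16 other BCL2 family genes in the table, 10 passed the filter on day 3, of which 3 were lower in DKI and 0 higher, with a median log2 difference of -0.24. *Bcl2a1a* was at 59.2, 71.1 and 49.0 RPKM (WT) and 18.7, 8.04 and 14.2 RPKM (DKI) (log2 fold change -2.11, SE 0.31, adjusted p = 0.0170), and *Bcl2a1c* at 6.51, 6.88 and 5.60 and 2.52, 0.973 and 2.46 RPKM (log2 fold change -1.34, SE 0.26, adjusted p = 0.0348). The 4 A1 copies thus had the same direction, although reads may be misassigned between them, so they are not independent of each other. *Bcl2a1c* was called in 5 and *Bcl2a1a* in 11 of 14 alternatives (adjusted p 0.00972 to 0.123 and 0.0145 to 0.0695). *Bcl2a1a* was lost without WT day 3 replicate 1 (adjusted p = 0.0695), 2 (0.0655) or 3 (0.0521). *Bcl2a1c* was lost without the same libraries (0.123, 0.118 and 0.0953) and without DKI day 3 replicate 3 (0.0571). With the block, *Bcl2a1c* lost its day 3 call (adjusted p = 0.0666), while both copies gained a call for day 6 (adjusted p = 0.0420 and 0.0265), having had none without it (0.0638 and 0.0504).

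*Bmf*, which encodes a further BH3-only protein, was the third gene of this list and the only one called on day 6 (1 of 11 tested). It was at 8.37, 5.02 and 7.78 RPKM (WT) and 7.18, 5.71 and 7.11 RPKM (DKI) on day 0, at 15.7, 26.5 and 15.8 (WT) and 5.71, 5.25 and 7.59 RPKM (DKI) by day 3, and at 32.3, 31.9 and 63.1 (WT) and 6.81, 7.37 and 7.05 RPKM (DKI) by day 6. In WT it rose to day 3 (log2 1.32, adjusted p = 0.00650) and day 6 (log2 2.38, adjusted p = 0.00102), whereas in DKI the values were -0.10 and 0.08 (adjusted p = 0.702 and 0.708). DKI was lower on day 3 (log2 fold change -1.47, SE 0.24, adjusted p = 0.0227) and on day 6 (log2 fold change -2.35, SE 0.28, adjusted p = 0.0114). With the replicate block the day 3 value had an adjusted p of 0.0549. The day 6 call was lost without DKI day 6 replicate 3 (adjusted p = 0.0587) and without replicate 1 of both genotypes (0.109), and over the 14 alternatives the adjusted p ran from 7.45e-05 to 0.109. On day 3 it was called in 8 of 14 (adjusted p 0.00203 to 0.0751) and lost without WT day 3 replicate 1 (0.0624) or 3 (0.0582) and without DKI day 3 replicate 2 (0.0597). The genotype difference on day 6 differed from that on day 0 (interaction -2.30, SE 0.36, adjusted p = 0.00931), in 19 of 20 alternatives (adjusted p 0.00556 to 0.111).

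Genes that act downstream and upstream of the family were read from lists. Of 11 tested apoptosome, caspase and IAP genes, 1 was higher and 0 lower in DKI on day 3, namely *Apaf1*, the scaffold of the apoptosome, at 16.8, 17.3 and 16.8 RPKM (WT) and 30.8, 23.3 and 27.7 RPKM (DKI) (log2 fold change 0.64, SE 0.14, adjusted p = 0.0490). With the block it was not called (adjusted p = 0.0841), and it was called in 3 of 14 alternatives (adjusted p 0.00629 to 0.156). The call was lost when any 1 of the 6 libraries was left out. On day 6, limma called 0 of the 11, with 3 at an unadjusted p under 0.05 and 0 called by voom. Of 9 death receptor pathway genes, 0 were called on either day, with 1 and 3 at an unadjusted p under 0.05 on days 3 and 6. Of 2 MCL1 turnover genes 0 were called and 0 had an unadjusted p under 0.05 on either day, and voom called 0 in both lists. Of 7 genes listed as p53 and FOXO inputs, *Bcl6*, a transcriptional repressor, was lower in DKI on day 3 (27.5, 16.9 and 23.8 against 7.01, 5.76 and 6.32 RPKM, log2 fold change -1.67, SE 0.20, adjusted p = 0.0105), in 14 of 14 alternatives (adjusted p 0.00114 to 0.0472), and on day 6 limma called 0 of the 7, with 6 at an unadjusted p under 0.05 and 0 called by voom. *Bcl6* had fallen from day 0 in both genotypes, by 1.41 in WT and 3.08 in DKI on the log2 scale to day 3.

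The GM-CSF receptor and STAT5 target list gives the setting of these values. Of its 10 genes, 5 were lower in DKI on day 3 and 5 on day 6, with 0 higher. *Socs2* and *Cish*, feedback inhibitors of cytokine signalling and known STAT5 targets, differed by -4.14 (adjusted p = 0.00239) and -2.28 (adjusted p = 0.00690) on the log2 scale on day 3, and *Jak2*, the kinase of the receptor, by -2.10 (adjusted p = 0.00477), each in 14 of 14 alternatives. *Stat5a* differed by -1.67 (adjusted p = 0.0224, 10 of 14 alternatives, adjusted p 0.00152 to 0.0754), and lost its call without WT day 3 replicate 2 or 3 or DKI day 3 replicate 2 (0.0592, 0.0754 and 0.0509). The fifth gene on both days was *Csf2rb2*, named after its values were seen (-0.92 with adjusted p = 0.0405 on day 3 and -0.81 with 0.0410 on day 6). The day 6 differences were -4.30, -2.47, -2.38 and -1.68, and that of *Stat5a* was not called with the block (adjusted p = 0.0516, over its alternatives 0.00137 to 0.200). On that day *Cish* and *Socs2* kept their calls in 13 of 14 alternatives, the exception being without replicate 1 of both genotypes (adjusted p = 0.0866 for each). *Jak2* was called in 10 of 14 (adjusted p 0.000100 to 0.134) and lost its call without replicate 1 of both genotypes (0.134) and without WT day 6 replicate 1 or 3 or DKI day 6 replicate 3 (adjusted p = 0.0701, 0.0559 and 0.0666). *Stat5a* lost it without the same libraries (0.106, 0.0784 and 0.106) and without DKI day 6 replicate 1 (0.0798).

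As a description, the genes whose log2 values over the 18 libraries were most like those of the most variable members were sought among 10417 genes. For *Bcl2a1b* they were *Rbpj*, the DNA-binding partner of Notch (Pearson r = 0.976), *Bcl2a1a* (0.971) and *Basp1* (0.968). For *Bcl2a1d* they were *Mllt6* (0.978), *Bcl2a1a* (0.976) and *Pip4k2c*, a phosphatidylinositol phosphate kinase (0.964). The libraries share genotype, day and experiment, so these values largely follow the 6 groups. Reads may also be misassigned between the A1 copies, so their values are not independent of each other. Among the members, *Bcl2a1b* and *Bcl2a1d* had r = 0.959, *Mcl1* and *Bax* r = -0.873, and *Bcl2l1* and *Bax* r = 0.870 over the same libraries.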

How the data were processed

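RNA was sequenced from 18 libraries, 3 for each genotype and day. Per the study's methods, single-end reads were mapped by the authors to mm10 with Subread, counted on RefSeq genes with featureCounts and expressed as RPKM, and the counts were tested by the authors with edgeR. Versions, read length and strandedness are not given in the sources used here. The deposited values are RPKM. Whole reads could be recovered from the RPKM steps for 15200 of 15201 genes (99.99%, within 0.02 of a whole read), which gave library totals of 29.5 M to 43.2 M (median 36.4 M), and these reads were used for depth, the summed A1 copies and a voom alternative.

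Values were tested as log2(RPKM + 1) with limma 3.58.1 (lmFit, eBayes with trend) in R 4.3.3, over genes whose mean RPKM passed 2 in 1 group or more, with Benjamini-Hochberg adjustment over all genes tested. A gene was called at an adjusted p under 0.05 and a fold above 1.5. Genotypes were compared on each day, days within each genotype, and both together as interactions. The fit was also run on simulated data with large planted changes and independent noise in each library. These data lack the deviations that same-numbered libraries share, which are given below. Gene identifiers matched RefSeq GRCm38.p6 for 20082 of 20298 genes. Descriptions used Python 3.11.15 with pandas 2.3.3, SciPy 1.17.1 and Biopython 1.88.

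The replicate numbers come from the labels. Deviations from the group means correlated between same-numbered libraries at r of 0.69 to 0.87 for WT and DKI on day 0, 0.16 to 0.37 on day 3, 0.34 to 0.41 on day 6, 0.12 to 0.68 between days 3 and 6 in WT and 0.32 to 0.74 in DKI, so the numbers were taken to pair those libraries. Between day 0 and later days r was -0.21 to 0.18, and the numbers were not.

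The members and lists were chosen with earlier results of these data known. From each pathway list the text names the genes called between the genotypes on day 3 or 6, at most 4 by adjusted p, and others are marked. For the 2 members of largest range, the 3 most correlated genes are named. Alternatives were another pseudocount (0.1), no filter, a replicate block, all 18 libraries in 1 fit, median centring, quantile normalization, each library left out, replicate 1 left out, and, added after the data were seen, voom on recovered reads and the same alternatives for the named list genes.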

Additional observations from a re-analysis of the deposited data

Results flagged for a closer look

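None of the 10 members is listed here, since limma without a replicate block called 0 of their interactions, although with the block, which pairs the genotypes by number on each day, it called *Bcl2a1d* for day 3 and day 6 against day 0 (-1.91, adjusted p = 0.0206, and -1.86, adjusted p = 0.0188) and *Pmaip1* for day 6 (-1.29, adjusted p = 0.0408). Groups of 3 libraries are too small for a test of outlying libraries. Among the pathway genes named above, 5 had a difference between DKI and WT that itself differed between days by the interaction test. Between day 3 and day 0 the change of the genotype difference, on the log2 scale, was -4.23 (SE 0.26, adjusted p = 4.13e-05, 20 of 20 alternatives) for *Socs2*, -2.11 (SE 0.33, adjusted p = 0.00773, 20 of 20 alternatives) for *Jak2*, -1.66 (SE 0.28, adjusted p = 0.0118, 19 of 20 alternatives) for *Bcl6* and -1.60 (SE 0.34, adjusted p = 0.0326, 8 of 20 alternatives) for *Stat5a*. The adjusted p of *Stat5a* ran from 0.00594 to 0.0870 over its alternatives, and it lost its call without any 1 of the day 0 libraries but WT replicate 3, and without WT day 3 replicate 2 or 3 or DKI day 3 replicate 1. Between day 6 and day 0 it was -4.38 (SE 0.48, adjusted p = 0.00136, 18 of 20 alternatives) for *Socs2*, -2.40 (SE 0.44, adjusted p = 0.0186, 15 of 20 alternatives) for *Jak2* and -2.30 (SE 0.36, adjusted p = 0.00931, 19 of 20 alternatives) for *Bmf*. *Jak2* lost its call without WT day 0 replicate 2 or 3 or DKI day 0 replicate 1 or 2 (adjusted p over its alternatives 0.00572 to 0.147). *Socs2* lost it with voom on recovered reads (adjusted p = 0.148) and without replicate 1 of every group (0.0514), with a range of 0.000135 to 0.148 over its alternatives, and *Bmf* without replicate 1 of every group (0.111, range 0.00556 to 0.111). *Bcl6* lost its day 3 value to the same omission (0.104, range 0.00561 to 0.104). Each of these was lower in DKI relative to WT in GM-CSF than before it.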

How the results depend on the processing

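Of the 120 member values over 12 comparisons, 32 were called. Over 448 alternative values of these, 358 kept the call, 90 lost it and 0 changed direction, and of the values not called, 22 alternatives reached a call. The count of members called for DKI against WT on day 3 was 3, and 1 with no filter, with the replicate block, with all 18 libraries in 1 fit and with median centring, and 1 to 2 when 1 library or replicate 1 was left out. On day 6 it was 1, and 2 with the block and with all 18 libraries, and 0 to 1 when 1 library was left out. For DKI from day 0 to day 3 it was 8, and 3 with no filter, 5 with the block, 5 with median centring and 2 to 7 when 1 library was left out. The numbers did not pair the libraries there, and the block changed no count of the other comparisons from day 0 by over 1.5 times, though it added calls of *Bcl2l11* to day 3 (adjusted p = 0.0490) and *Pmaip1* to day 6 (adjusted p = 0.0138) in WT. Among the paired comparisons it changed no member call beyond those given for days 3 and 6. The interactions called 0 members, and with the block 1 for day 3 and 2 for day 6 against day 0. The cause of these shifts was not tested, except that fits with a library left out had fewer libraries. Over all genes, calls on day 3 were 723, and 358 with no filter and 1359 with all 18 libraries. On day 6 they were 742, and 466 with voom, 187 with no filter and 1573 with all 18 libraries. The interaction of day 3 with day 0 had 297, and 1040 with the block and 91 with voom, and that of day 6 with day 0 had 290, 1401 and 50. All 18 libraries in 1 fit gave 6 calls on day 0 and 16 in WT from day 3 to day 6, where limma otherwise had 0. Directions reversed for 40 member values, 0 of them called, the largest of 0.86 on the log2 scale. With median centring the reversed values were *Mcl1* -0.00488 in DKI against WT on day 0, *Mcl1* 0.10, *Bax* 0.12 and *Bak1* 0.00518 in DKI against WT on day 6, *Mcl1* 0.0917 and *Bax* 0.0617 in the interaction of day 6 with day 0, *Bbc3* 0.0112 in the interaction of day 6 with day 3, and with quantile normalization *Bbc3* -0.00151 in DKI against WT on day 0, *Mcl1* 0.00750 and *Bax* 0.0445 in DKI against WT on day 6, *Mcl1* 0.00838 in DKI from day 3 to day 6, *Mcl1* 0.00227 in the interaction of day 6 with day 0, *Bbc3* 0.0134 in the interaction of day 6 with day 3. When 1 library was left out, values not called crossed 0 within ranges given on the log2 scale, replicate 1 of every group included among those left out, and the cause was not tested. For DKI against WT on day 0 these were *Bcl2* -0.24 to 0.0799, *Bcl2l1* -0.18 to 0.11, *Mcl1* -0.0772 to 0.0879, *Bcl2a1b* -1.16 to 0.58, *Bcl2a1d* -1.02 to 0.33, *Bax* -0.00277 to 0.13, *Bak1* -0.12 to 0.23, *Bcl2l11* -0.39 to 0.93, *Bbc3* -0.35 to 0.39 and *Pmaip1* -0.39 to 0.23. For DKI against WT on day 3 these were *Mcl1* -0.000842 to 0.31 and *Bcl2l11* -0.0697 to 0.37. For DKI against WT on day 6 these were *Bcl2* -0.71 to 0.0736, *Mcl1* -0.16 to 0.10, *Bax* -0.21 to 0.10 and *Bcl2l11* -0.49 to 0.20. For WT from day 3 to day 6 these were *Bcl2a1b* -0.24 to 0.34 and *Bbc3* -0.0537 to 0.21. For DKI from day 0 to day 6 these were *Bak1* -0.0150 to 0.54. For DKI from day 3 to day 6 these were *Bcl2* -0.24 to 0.67, *Bcl2l1* -0.41 to 0.0918, *Mcl1* -0.19 to 0.12, *Bcl2a1d* -0.27 to 0.0137, *Bax* -0.34 to 0.0227 and *Bbc3* -0.19 to 0.19. For the interaction of day 3 with day 0 these were *Mcl1* -0.0331 to 0.30, *Bcl2l11* -0.80 to 0.53 and *Bbc3* -0.70 to 0.0436. For the interaction of day 6 with day 0 these were *Bcl2* -0.61 to 0.22, *Mcl1* -0.17 to 0.0922, *Bcl2a1b* -1.63 to 0.11, *Bax* -0.25 to 0.0398 and *Bcl2l11* -1.20 to 0.12. For the interaction of day 6 with day 3 these were *Bcl2l1* -0.15 to 0.35, *Bcl2a1d* -0.13 to 0.30, *Bax* -0.0198 to 0.31, *Bak1* -0.21 to 0.13, *Bbc3* -0.27 to 0.11 and *Pmaip1* -0.53 to 0.10. Member values rested on 14 to 58269 reads and each group on 3 libraries.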
